A study of Mus musculus with 3 samples.

Results

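MicroRNA precursor and host loci were examined in the ventricle of the mouse heart during development. They were taken as the loci of the deposited annotation that carried a microRNA gene name (Mir or Mirlet7 followed by a number) and held no transcript identical to a RefSeq mRNA. There were 679 such loci among the 48617 loci of the annotation, and a further 74 loci with a microRNA name were left out because they also held a matching mRNA. The samples were heart ventricles of C57BL/6 mice at the embryonic stages E10.5 and E13.5 (days after conception) and at 8 weeks of age (the adult), and the labels name no genetic change or treatment in any of them. Total RNA of each stage gave 1 stranded paired-end library, so the 3 stages had no replicates, no difference between them has an error or a p-value, and each statement on a stage is a statement on its library. The sources used here do not say how many animals went into a library. Expression levels are given as FPKM, the number of fragments scaled to exon length and to the size of the library.

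A microRNA is cut from a hairpin in a long primary transcript by Drosha and its partner Dgcr8, exported from the nucleus by Xpo5, cut again by Dicer1 and loaded onto an Argonaute protein. The loaded strand pairs with mRNAs mainly through its seed, bases 2 to 8 from the 5′ end, and lowers their stability and translation. Many hairpins lie in introns or exons of long non-coding host genes, and several may be cut from 1 transcript. In the heart, miR-1 and miR-133 are known as muscle microRNAs, the miR-17 cluster as a promoter of cell proliferation, and the let-7 family as a set whose processing is blocked by the Lin28 proteins of early embryos. RNA-seq of total RNA reads the host transcripts. It does not read the mature microRNAs, so all values below are levels of precursor or host loci.

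Mature sequences were taken from RefSeq (GRCm38.p6), in which 216 mature sequences fell within 56 of the microRNA loci on the same strand and had 173 distinct seeds, of which 16 occurred in 2 or more loci. The families below are shown because loci carrying 1 and the same seed differed in level or in the stage of highest level, and miR-22 is shown because its host is one of the markers of this set of loci. Capitals mark the seed.
mmu-miR-17-5p: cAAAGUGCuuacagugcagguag
mmu-miR-20a-5p: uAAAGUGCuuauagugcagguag
mmu-miR-322-5p: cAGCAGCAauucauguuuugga
mmu-miR-16-5p: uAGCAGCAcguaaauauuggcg
mmu-miR-195a-5p: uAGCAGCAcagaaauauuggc
mmu-miR-503-5p: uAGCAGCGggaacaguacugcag
mmu-let-7c-5p: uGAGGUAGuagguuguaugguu
mmu-let-7a-5p: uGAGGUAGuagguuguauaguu
mmu-let-7b-5p: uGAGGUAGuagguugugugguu
mmu-miR-29a-3p: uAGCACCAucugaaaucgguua
mmu-miR-29b-3p: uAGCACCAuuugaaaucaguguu
mmu-miR-29c-3p: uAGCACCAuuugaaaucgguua
mmu-miR-22-3p: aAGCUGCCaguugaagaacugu
The seed of miR-503-5p is equal to that of miR-322-5p, which is cut from the same locus, up to base 7.

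The 679 loci were of 3 kinds. There were 460 loci with a summed exon length of at most 200 nt, which are mostly the annotated hairpins themselves, and FPKM is unreliable at that length. Of the 219 longer loci, 68 lay on the strand of a microRNA entry and are called sense loci here. The other 151 overlapped a microRNA entry only on the opposite strand and are called antisense loci. A level of 1 FPKM in any library was reached by 55 of the 68 sense loci, 127 of the 151 antisense loci and 3 of the 460 short loci. The 55 sense loci had a median length of 5165 nt, 30 of them were spliced, and their median level was 1.86 FPKM at E10.5, 2.27 FPKM at E13.5 and, in the adult, 2.35 FPKM. Of these 55 loci, 23 reached 1 FPKM at every stage. The depth was read from the smallest step between low values, and a 1 kb transcript at 1 FPKM corresponded to roughly 13.8 fragments in the E10.5 and the adult library and 26.7 in the E13.5 library. Where 3 values are given without stages below, they follow the order of development.

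Markers of the ventricle were high in all libraries. The ventricular cardiomyocyte genes Myl2, Tnnt2, Actn2 and Tnni3 summed to 9204 FPKM in the E10.5 library, 15128 FPKM in the E13.5 library and 19229 FPKM in the adult one. The atrial genes Myl7, Nppa, Sln and Myl4, which embryonic ventricles also express, summed to 6382, 6766 and 40.9 FPKM, and none of these 8 genes was listed at 0. Proliferation genes (Mki67, Top2a, Ccnb1, Mcm7) summed to 219, 242 and 5.05 FPKM, and leukocyte genes (Ptprc, Cd68, Csf1r and Emr1) to 2.80, 13.6 and 70.6 FPKM. The embryonic globin genes Hbb-y, Hbb-bh1 and Hba-x, markers of red cells, summed to 6727, 16305 and 3.05 FPKM and were thus highest at E13.5 as a sum. The part of these shifts in the changes below was not tested, and in bulk tissue fewer cells of a type and less RNA per cell cannot be told apart.

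A change was taken as the difference of log2(FPKM + 1) between 2 libraries and was counted when it was past 1 in either direction, which understates changes of low loci. Among the 55 sense loci, 17 (30.9%) exceeded their E10.5 level in the adult and 12 (21.8%) stood below it. Over all 26910 loci that reached 1 FPKM, 25.8% were higher and 24.9% lower, and over the 12569 mRNA loci 14.8% were higher and 27.3% lower. The median change of the sense loci was 0.36 against -0.40 for mRNA loci. With median-of-ratios scaling over the mRNA loci these medians were 0.68 and -0.06, and changes that involve the adult are to be read against this shift. From E10.5 to E13.5, 9 sense loci (16.4%) were higher and 5 (9.09%) lower, beside 3.95% higher and 17.2% lower over all loci and 5.89% and 4.85% over mRNA loci, and the 9 became 5 with either rescaling. From E13.5 to the adult, 16 (29.1%) were higher and 16 (29.1%) lower, beside 29.1% and 18.6% over all loci and 13% and 32.1% over mRNA loci. This even split did not hold after rescaling, with 22 higher and 11 lower by median-of-ratios scaling and 19 and 13 by scaling without globin and mitochondrial loci. As deposited, the stage with the highest level was E10.5 for 8 sense loci, E13.5 for 23 and the adult for 24. The matching shares over all loci were not counted. With median-of-ratios scaling the adult exceeded E13.5 for Mir1940;Snora47 (-0.43 as deposited, 0.12 rescaled), E330013P06 (-0.35 and 0.15) and Mir328 (-0.19 and 0.11).

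**Figure D1:**
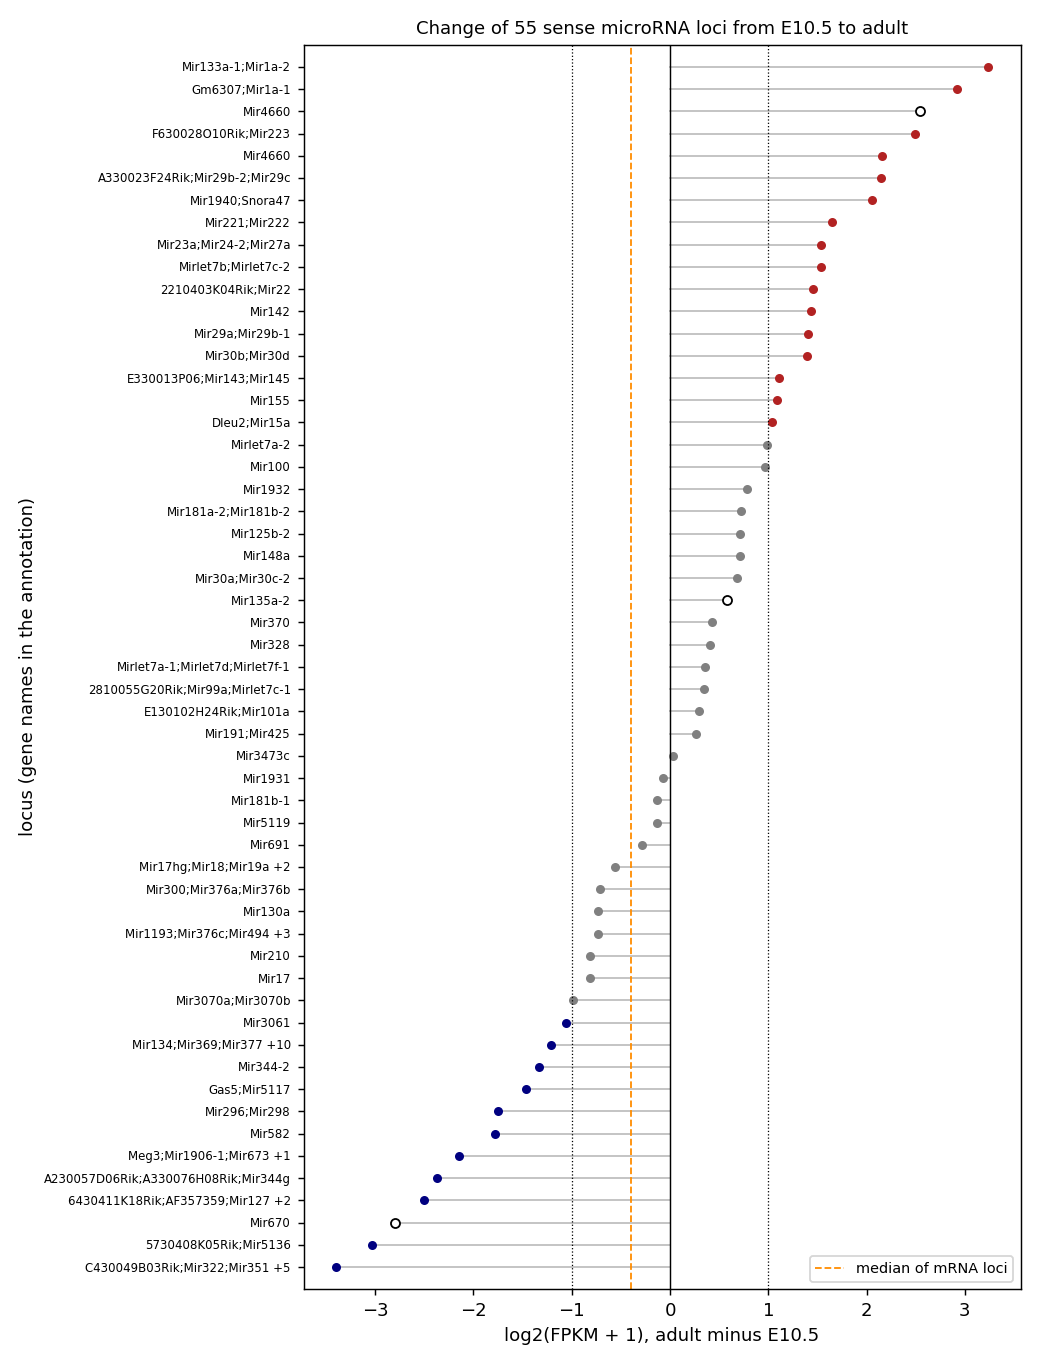
Difference of log2(FPKM + 1) between the adult and the E10.5 library for the 55 sense loci that reached 1 FPKM, 1 point per locus, red past 1, blue past -1, grey between, and open where 1 of these libraries was listed at 0. The dashed line is the median of mRNA loci (-0.40), and the hosts of miR-133a-1 (3.23) and miR-322 (-3.40) stand at the ends.

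Among the sense loci, the primary transcripts of the muscle microRNAs had the 2 highest positive changes from E10.5 to the adult. The Mir133a-1;Mir1a-2 locus was at 1.11, 3.30 and 18.9 FPKM, a change of 3.23 between the first and the last stage. It lies at chr18:10778078-10787996 (GRCm38, minus strand), inside and opposite to the coding gene Mib1, a ubiquitin ligase of Notch signalling. Mib1 went the other way, from 39.4 to 28.5 and 17.3 FPKM. The other copy, Mir1a-1 within the spliced host Gm6307 (chr2:180385604-180401802, plus strand), was at 2.07, 3.73 and 22.3 FPKM, a change of 2.92. Both copies thus stood lowest at E10.5 and highest in the adult, at similar levels. The values at E10.5 rested on about 58 fragments for Gm6307 and 150 for the Mir133a-1 locus. For comparison, the ventricular genes Tnnt2 and Tnni3, parts of the troponin complex, changed by 2.33 and 2.93 over the same interval, whereas Myl2 changed by 0.57.

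Mir17hg, the host gene of the miR-17 cluster and one of the markers of these loci, was highest at E13.5. The locus (chr14:115043756-115050860, plus strand, 7105 nt of exon) contains the hairpins of miR-18, miR-19a, miR-20a, miR-19b-1 and miR-92-1 in its exons. Its levels were 5.24, 8.87 and 3.24 FPKM, resting on about 510, 1700 and 320 fragments. The adult library was thus the lowest, with a change of -0.56 from E10.5 and -1.22 from E13.5, and the latter was -0.75 with median-of-ratios scaling. Mir17 itself was assembled as a separate locus of 330 nt that ends at position 115043754, just upstream of Mir17hg, and was at 19.6, 39.2 and 10.7 FPKM. Both pieces of the cluster therefore had the same order of stages, although their levels differed by several-fold. Kis2;Mir106a on the X chromosome, whose miR-106a-5p has the seed AAAGUGC of miR-17-5p and miR-20a-5p, was at 0.0356 FPKM in the adult and listed at 0 in the embryonic libraries.

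The loci with the seed AGCAGCA differed in their order of stages. The X-linked host C430049B03Rik (chrX:53046195-53057196, minus strand), which carries Mir322, Mir503, Mir351, Mir542 and the Mir450 hairpins, was at 32.3, 70.0 and 2.16 FPKM. Its change of -3.40 over the whole interval was the lowest among the sense loci, and E13.5 exceeded the adult by 32.3-fold. Dleu2 (chr14:61602836-61682373, minus strand), with Mir15a among its names and the miR-16-1 hairpin in an intron, was at 6.79, 13.3 and 15.1 FPKM, a change of 1.04. The Mir195 locus on chromosome 11 stayed under 1 FPKM, at 0.137, 0.203 and 0.915 FPKM. Dleu2 and the Mir195 locus were thus highest in the adult, and the host of miR-322-5p was lowest there. Smc4, a coding gene that holds miR-16-2, another source of miR-16-5p, was also lowest in the adult, at 54.5, 73.1 and 6.88 FPKM. MicroRNAs of this seed are known to act on cell cycle genes. The summed level of the 4 proliferation genes was lowest in the adult, and a relation between these genes and the hosts was not tested.

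All 6 sense loci of let-7, miR-99/100 and miR-125 that reached 1 FPKM had a higher adult than E10.5 level under every scaling. The share of all loci with any increase was not counted beside this. Their median change was 0.84, against 0.36 for the 55 sense loci that reached 1 FPKM. Past 1 upward was 1 of the 6, beside 25.8% past 1 over all loci and 30.9% over the sense loci. The number past 1 was 4 with median-of-ratios scaling and 3 with scaling without globin and mitochondrial loci. With the same rescalings the number of higher sense loci went from 17 to 23 and 19. The highest was 2810055G20Rik (chr16:77329328-77708737, plus strand), the long host of Mir99a and Mirlet7c-1, at 22.0, 17.4 and 28.2 FPKM. Mir125b-2, on the same strand within its span, was at 3.45, 1.84 and 6.32 FPKM, a change of 0.72 that was 1.07 with median-of-ratios scaling. These neighbouring loci were both lowest at E13.5. The Mirlet7a-1;Mirlet7d;Mirlet7f-1 locus on chromosome 13 was at 5.58, 11.6 and 7.43 FPKM and was the exception in that it was highest at E13.5. Mirlet7b;Mirlet7c-2 on chromosome 15 was at 0.155, 0.753 and 2.35 FPKM, a change of 1.54. On chromosome 9, Mirlet7a-2 was at 0.498, 0.777 and 1.97 FPKM and Mir100, just upstream of it, at 0.331, 0.813 and 1.60 FPKM. Their changes of 0.99 and 0.97 lay just under the threshold and were 1.23 and 1.19 with median-of-ratios scaling.

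The imprinted cluster on chromosome 12, from Meg3 to Mirg (chr12:109540996-109749457), held 34 of the 679 loci. Its non-coding transcripts are known to be expressed from the maternal copy. Of its 8 sense loci, 7 had a lower level in the adult than in the E10.5 library, and 7 were highest at E13.5. How many of all loci had any decrease, or stood highest at E13.5, was not counted beside this. Of the 55 sense loci at 1 FPKM or more, 23 were highest at E13.5. The 8 loci lie on the same strand within this cluster, and whether they vary separately was not tested. Mir665 stayed under 1 FPKM. Among the 7 that reached 1 FPKM, 3 were lower past 1, beside 24.9% of all loci and 27.3% of mRNA loci. This count of 3 became 2 with median-of-ratios scaling and 4 with scaling without globin and mitochondrial loci. Rian, the snoRNA and microRNA host that contains Mir127, was at 38.1, 60.7 and 5.90 FPKM, a change of -2.50. Meg3 was at 19.4, 20.7 and 3.61 FPKM, a change of -2.14, and its order at the embryonic stages turned with either rescaling (0.09 as deposited, -0.06 and -0.21 rescaled). Mirg was at 5.65, 16.6 and 1.87 FPKM, a change of -1.21 that was -0.91 with median-of-ratios scaling. The smaller loci with Mir376c and Mir494 (1.20, 2.46 and 0.330 FPKM), with Mir300, Mir376a and Mir376b (1.37, 2.30 and 0.452 FPKM) and with Mir3070a and Mir3070b (1.79, 2.27 and 0.409 FPKM) had the same order of stages. Mir370 was the exception at 0.960, 1.37 and 1.64 FPKM, on a locus of 920 nt with about 12, 34 and 21 fragments. This piece lies on the same strand within the span of Rian, which holds the Mir370 hairpin as well. The coding gene Rtl1, opposite to Rian, was at 0.0400, 0.0786 and 0.0372 FPKM. Of the 26 short loci in the cluster, 25 were listed at 0 in all 3 libraries.

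**Figure D2:**
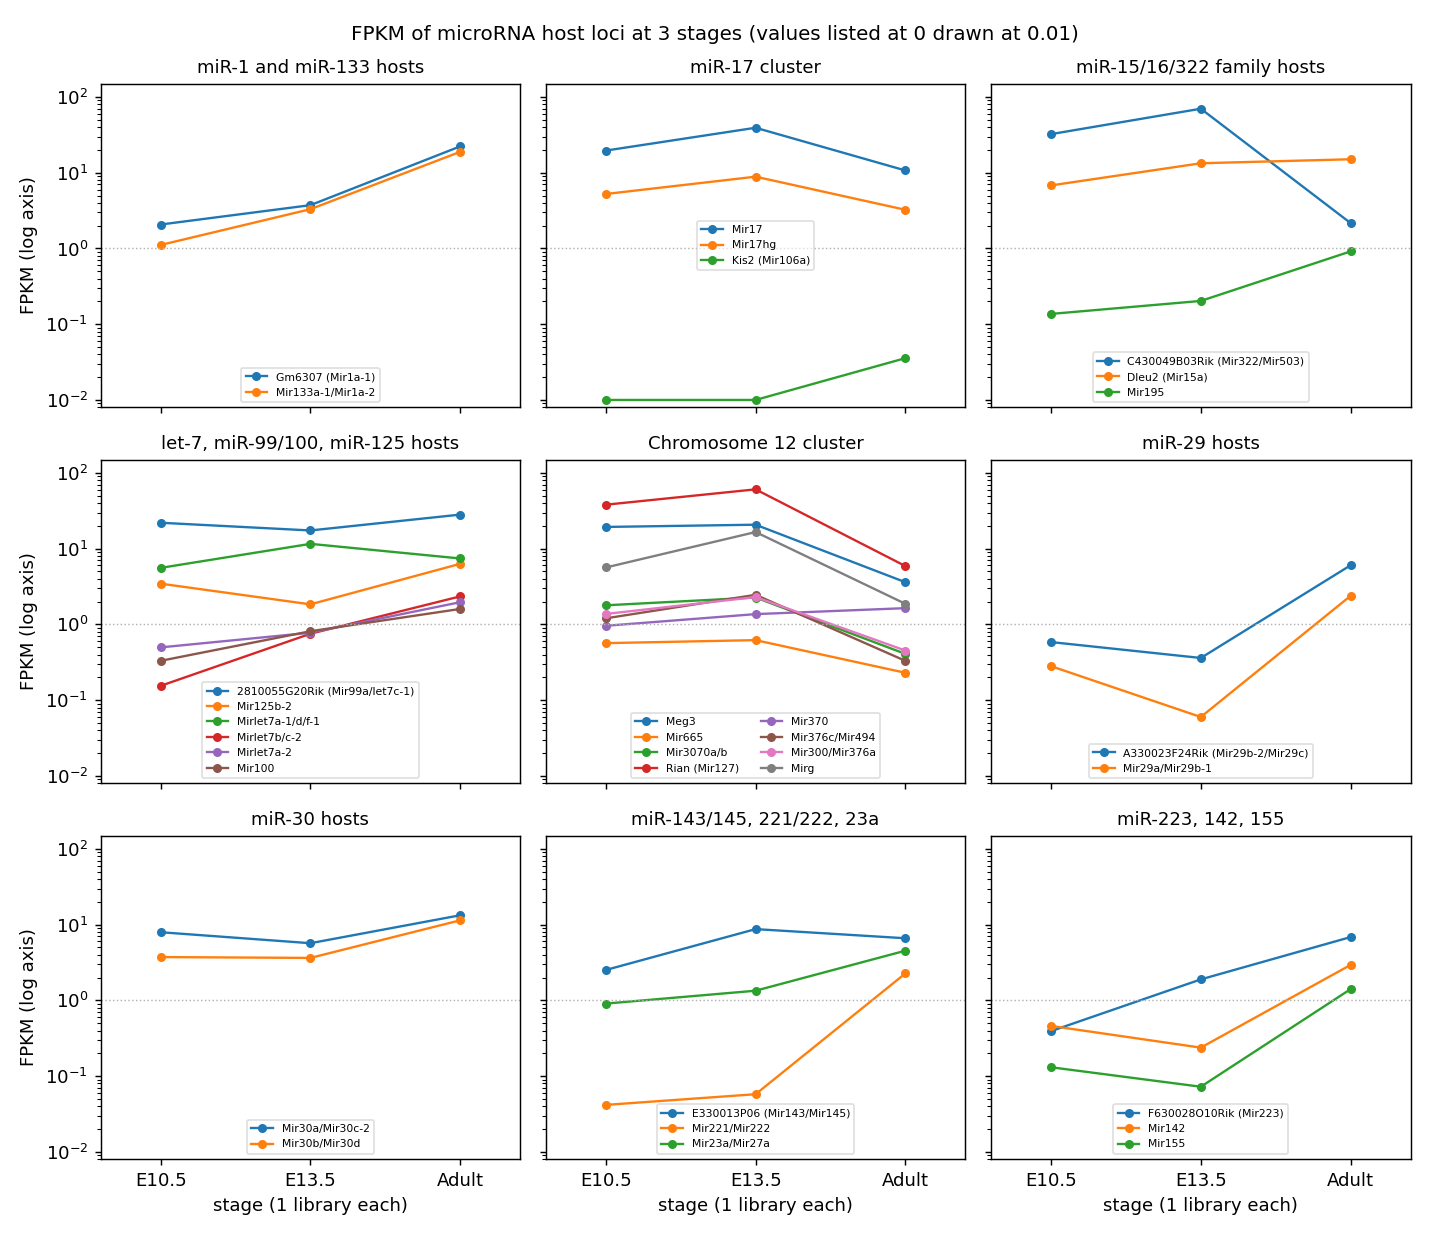
FPKM on a log axis at the 3 stages, 1 library each, for 9 groups of sense microRNA loci, 1 line per locus, with values listed at 0 drawn at 0.01 and 1 FPKM as a dotted line. The hosts of miR-1, miR-29 and miR-223 are highest in the adult, whereas C430049B03Rik goes from 70.0 FPKM at E13.5 to 2.16 FPKM in the adult and Rian from 60.7 to 5.90 FPKM.

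Several other hosts of microRNAs known from heart muscle or its fibroblasts were highest in the adult. Mir22hg is named 2210403K04Rik in the deposited annotation (chr11:75461539-75467455, plus strand, 5395 nt of exon) and carries the miR-22 hairpin in an exon. It was at 2.75, 4.64 and 9.31 FPKM, a change of 1.46, and the 3 values rested on about 150, 490 and 510 fragments. The step from E13.5 to the adult was 0.87 in the deposited values and 1.36 after median-of-ratios scaling. The 2 miR-29 hosts share the seed AGCACCA, and miR-29 is known for targeting collagen mRNAs. A330023F24Rik with Mir29b-2 and Mir29c (chr1:195017078-195040867) was at 0.585, 0.361 and 6.04 FPKM, and Mir29a;Mir29b-1 (chr6:31060310-31086648) was at 0.281, 0.0599 and 2.39 FPKM. Both were lowest at E13.5 and highest in the adult, with changes of 2.15 and 1.40 from E10.5. The fibroblast genes Col1a1, Col1a2, Pdgfra and Tcf21 summed to 71.2, 178 and 62.2 FPKM and so were highest at E13.5. The miR-30 hosts were also highest in the adult, Mir30a;Mir30c-2 at 7.95, 5.69 and 13.3 FPKM and Mir30b;Mir30d at 3.73, 3.64 and 11.4 FPKM. Only the latter was past 1 from E10.5 (1.39), and the former was with median-of-ratios scaling (0.68 and 1.06).

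The 3 hosts of microRNAs known from vessels that are described here were lower at E10.5 than in the adult, each past 1, beside 25.8% of all loci. Of these, Mir221;Mir222 and Mir23a;Mir24-2;Mir27a were named after their values were seen. The other sense loci were not sorted by a link to vessels. Among them Mir130a, for instance, went the other way, at 1.15, 2.05 and 0.301 FPKM (-0.73). Egfl7, the coding gene around the endothelial miR-126, changed by -0.27. E330013P06, the host of Mir143 and Mir145 of smooth muscle (chr18:61644070-61666000), was at 2.52, 8.74 and 6.62 FPKM, and the order of E13.5 and the adult turned with median-of-ratios scaling (-0.35 as deposited, 0.15 rescaled). The smooth muscle genes Myh11, Tagln, Acta2 and Cnn1 summed to 1311, 1226 and 187 FPKM, and of the 4 only Myh11, the one restricted to smooth muscle, was higher in the adult (0.112, 0.893 and 18.1 FPKM). Embryonic cardiomyocytes also express the other 3. Mir221;Mir222 on the X chromosome was at 0.0417, 0.0578 and 2.27 FPKM, resting on about 8.1, 22 and 440 fragments. The Mir23a;Mir24-2;Mir27a locus on chromosome 8 was at 0.908, 1.34 and 4.53 FPKM, a change of 1.54. The endothelial genes Pecam1, Cdh5, Tek and Kdr summed to 191, 121 and 207 FPKM.

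The 3 loci of leukocyte microRNAs, named after their values were seen, were all higher past 1 from E10.5 to the adult. Over this interval 25.8% of all loci and 30.9% of the sense loci were higher. F630028O10Rik with Mir223, a myeloid microRNA, was at 0.393, 1.89 and 6.86 FPKM, a change of 2.50. Mir142, common to blood cells, was at 0.461, 0.238 and 2.94 FPKM, a change of 1.43. Mir155, known from activated immune cells, was at 0.131, 0.0725 and 1.41 FPKM, a change of 1.09 that rested on about 2.1 fragments at E10.5 and 23 in the adult. Each of the 4 leukocyte genes was higher at E13.5 and higher again in the adult, as Mir223 was, while Mir142 and Mir155 were lower at E13.5. The part of leukocyte content in these 3 values was not tested.

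The 2 sense loci with the highest levels were named for non-coding genes besides a microRNA. 5730408K05Rik, which holds the Mir5136 hairpin in an exon, was at 98.5, 90.4 and 11.2 FPKM, a change of -3.03. Gas5, a snoRNA host with Mir5117 among its names, was at 66.0, 78.7 and 23.3 FPKM, a change of -1.46. Mir1940;Snora47, inside Zbed3 on the same strand, was at 3.98, 26.8 and 19.7 FPKM while Zbed3 was at 8.85, 6.14 and 2.02 FPKM, so the piece and the gene around it differed in direction. Mir1932 on chromosome 11, a spliced locus with 19809 nt of exon, was at 13.2, 3.65 and 23.3 FPKM. It held no transcript identical to the microRNA entry and had the hairpin in an intron, so these are levels of the long transcript. Mir181a-2;Mir181b-2 was at 1.86, 9.42 and 3.70 FPKM and Mir181b-1, with the same seed ACAUUCA, at 0.985, 2.48 and 0.816 FPKM, so both were highest at E13.5. The host of the miR-344 group on chromosome 7 (A230057D06Rik, with Mir344g) was at 7.70, 4.44 and 0.679 FPKM, and Mir344-2 within its span at 2.01, 0.775 and 0.198 FPKM. Mir670 was at 5.96 and 7.43 FPKM in the embryonic libraries and was listed at 0 in the adult. Mir296;Mir298, near the imprinted Gnas gene, was at 2.82, 4.50 and 0.137 FPKM. One of the 2 spliced loci named Mir4660, both on chromosome 12, was at 0.615, 0.0743 and 6.20 FPKM, and the other was at 4.82 FPKM in the adult and listed at 0 before. RefSeq places Mir4660 on chromosome 2, so these 2 loci are no measure of that microRNA, and without them 15 of 53 sense loci (28.3%) were past 1 upward from E10.5 to the adult.

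The direction of a host and of the coding gene around or opposite to it were not always the same. Of the 55 sense loci at 1 FPKM or more, 5 lay inside a coding gene on the same strand and 8 overlapped a coding locus on the opposite strand. Within Pde4d, a phosphodiesterase gene, Mir582 was at 3.71, 1.22 and 0.367 FPKM while the gene was at 26.5, 12.3 and 17.8 FPKM. Dleu2 (change of 1.04) faced Trim13 at 9.85, 14.1 and 10.8 FPKM, a change of 0.13. The miR-29c host (2.15) faced Cd46 at 2.60, 1.25 and 6.00 FPKM, a change of 0.96, and both were lowest at E13.5. Mir181a-2;Mir181b-2 (0.72) faced Nr6a1 at 2.37, 0.746 and 0.708 FPKM, a change of -0.98.

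The 151 antisense loci were of another nature. Of these, 150 were single unspliced transcripts, 96.0% lay inside a coding gene on the strand of that gene, and together they carried only 25 microRNA names, the 6 most frequent of which accounted for 101 loci. In the deposited annotation, 18 of the 26 entries with these names were split into exons of a few bases each, with a median of 68 nt of exon over a median span of 107048 bases, and 19 of the 26 lay away from the position that RefSeq gives for the same accession on the same assembly. By locus, 96.0% of the antisense loci lay away from that position, against 2 of the 55 sense loci at 1 FPKM or more. The entry of Mir3473, for instance, has 82 nt of exon in 4 pieces over 109648 bases of chromosome 15, whereas RefSeq places this microRNA on the X chromosome. The antisense loci are therefore described as pieces of the coding genes they lie in. There were 25 pieces named Mir3473, all inside Dip2b, 18 named Mir466d inside Camk1d, 17 named Mir3471-1 inside Klhl7 and 15 named Mir669a-1 inside Tbc1d5. Another 6 pieces named Mir467c lay inside Rps6kb1. The Mir467c pieces had medians of 8.85, 2.25 and 4.35 FPKM, while Rps6kb1, a kinase gene of growth signalling, was at 22.7, 24.8 and 20.2 FPKM. The Mir3473 pieces had medians of 1.16, 0.104 and 1.45 FPKM, while Dip2b was at 17.8, 12.9 and 12.5 FPKM. The highest single piece was named Mir378, lay inside Tcf12 on chromosome 9, and was at 13.7, 1.08 and 4.08 FPKM. RefSeq places Mir378 on chromosome 18, and its entry at the Tcf12 piece has 20 nt.

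The antisense loci were lowest at E13.5 as a set. Over the 127 that reached 1 FPKM, the medians were 1.03, 0.259 and 2.15 FPKM, and 86 (67.7%) were lowest at E13.5. The same was true of 76.2% of the 2841 other unspliced loci inside coding genes, so this share was no higher than that of intronic pieces in general. From E10.5 to E13.5, 3 (2.36%) were higher and 31 (24.4%) lower, beside 0.563% and 38.9% of those other pieces. From E13.5 to the adult, 80 (63%) were higher and 2 (1.57%) lower, beside 56.1% and 1.23%. From E10.5 to the adult, 43 (33.9%) were higher and 14 (11%) lower, beside 31.8% and 16.3%. Counting all 182 loci over 200 nt without regard to strand, 60 (33%) stood above and 26 (14.3%) below their E10.5 level in the adult, beside 25.8% and 24.9% over all loci. From E10.5 to E13.5, 12 (6.59%) were higher and 36 (19.8%) lower, beside 3.95% and 17.2%, and from E13.5 to the adult 96 (52.7%) and 18 (9.89%), beside 29.1% and 18.6%. The antisense pieces supplied more than the sense loci to 4 of these 6 counts. The exceptions were the 12 higher at E13.5, of which 9 were sense, and the 18 lower in the adult than at E13.5, of which 16 were sense.

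**Figure D3:**
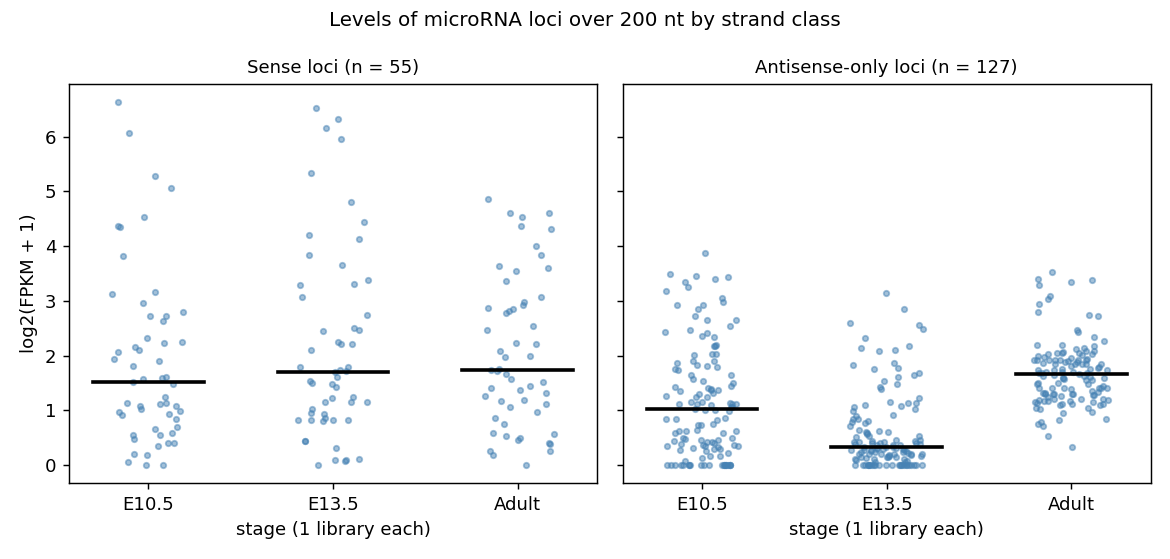
Levels as log2(FPKM + 1) at the 3 stages, 1 library each, for the 55 sense and 127 antisense loci that reached 1 FPKM, 1 point per locus with the median as a bar. The antisense median dips at E13.5 (0.259 FPKM against 1.03 and 2.15 FPKM), and the sense medians stay between 1.86 and 2.35 FPKM.

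The hairpin loci of 200 nt or less could not be read from these libraries. Of the 460, 457 (99.3%) were listed at 0 at all 3 stages, and so were all 393 microRNA loci of up to 100 nt. The same held for all 65 other loci of that length without a matching mRNA, and between 101 and 200 nt 64 of 67 microRNA loci and 21 of 206 other loci were listed at 0. The zeros included Mir133a-2 (chr2:180398379-180398482), although it lies within the span of Gm6307, which was at 22.3 FPKM in the adult. They included Mir126, inside the endothelial gene Egfl7 (58.4, 70.1 and 48.3 FPKM), and Mir499, inside Myh7b (5.79, 6.66 and 8.29 FPKM). They also included Mir208a and Mir208b, inside the joined locus of the heavy chain genes Myh6 and Myh7 (1029 and 1329 FPKM before birth, itself listed at 0 in the adult), as well as Mir133b, Mirlet7i, Mirlet7g and Mirlet7f-2. A value of 0 at such a locus is therefore no measure of absence. The 3 short loci above 0 were Mir703 (84.5, 180 and 3.59 FPKM), Mir1197 of the chromosome 12 cluster (41.7 FPKM at E13.5 and listed at 0 otherwise) and Mir1983 (30.8 FPKM at E13.5 and listed at 0 otherwise), and at 120 to 166 nt these values are unreliable. Of the 460 short loci, 56 lay away from the RefSeq position of their accession, among them 38 of the 42 that were split into exons. Of the 1005 hairpins in the RefSeq table, 119 lay in microRNA loci over 200 nt, 419 in introns and 118 in exons of coding loci, and 160 only in a short locus. Hairpins of some hosts named above, such as those of miR-1, were missing from this set.

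The genes that make and use microRNAs were mostly lower in the adult. Of 23 genes, 19 had a lower level in the adult library than in the E10.5 library, and the share of mRNA loci with any decrease was not counted. Past 1, 10 (43.5%) were lower and 1 was higher, beside 27.3% lower and 14.8% higher past 1 over mRNA loci. Tnrc6a and Tnrc6b, scaffolds of silencing and lower by under 1 as deposited, turned to slightly higher with median-of-ratios scaling. The median change of the list was -0.88, and -0.53 with median-of-ratios scaling, against -0.40 and -0.06 for mRNA loci. The nuclear enzyme Drosha was at 19.9, 8.63 and 9.20 FPKM, a change of -1.03 that was -0.65 with median-of-ratios scaling. Its partner Dgcr8 was at 14.6, 19.4 and 7.63 FPKM, and the exporter Xpo5 was at 22.3, 23.6 and 14.6 FPKM, neither past 1. Dicer1 was at 25.7, 10.9 and 8.99 FPKM (-1.42), and its partner Tarbp2 at 13.1, 13.7 and 3.04 FPKM (-1.80). Drosha and Dicer1 thus had most of their decrease before E13.5, whereas Tarbp2 had it after. Srsf3, a splicing factor that aids hairpin processing, was at 86.6, 94.5 and 20.1 FPKM, and Ran, the GTPase of nuclear export, at 117, 129 and 21.4 FPKM.

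The Argonaute genes differed among themselves. Ago2 (Eif2c2 in the annotation), the slicing member of the family, was at 29.2, 6.67 and 9.22 FPKM, a change of -1.56. Ago4 (Eif2c4) was at 0.922, 0.803 and 3.94 FPKM, a change of 1.36 and the only increase past 1 in the list. Lin28a, Lin28b and Trim71 had the lowest adult levels in the list. The let-7 blocker Lin28b was at 9.31, 2.20 and 0.346 FPKM (-2.94), its relative Lin28a at 1.92, 0.309 and 0.108 FPKM (-1.40), and Trim71, a let-7 target of early embryos, at 5.0, 0.618 and 0.111 FPKM (-2.43). Zcchc11, the uridyl transferase that acts with Lin28a, was at 44.3, 21.6 and 14.4 FPKM (-1.56). Each of these 4 genes stood lower at E13.5 than before and lower again in the adult. The 6 loci of let-7, miR-99/100 and miR-125 were higher in the adult than at E10.5, but 2 of them were lower at E13.5 than at E10.5 and 1 was highest at E13.5.

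**Figure D4:**
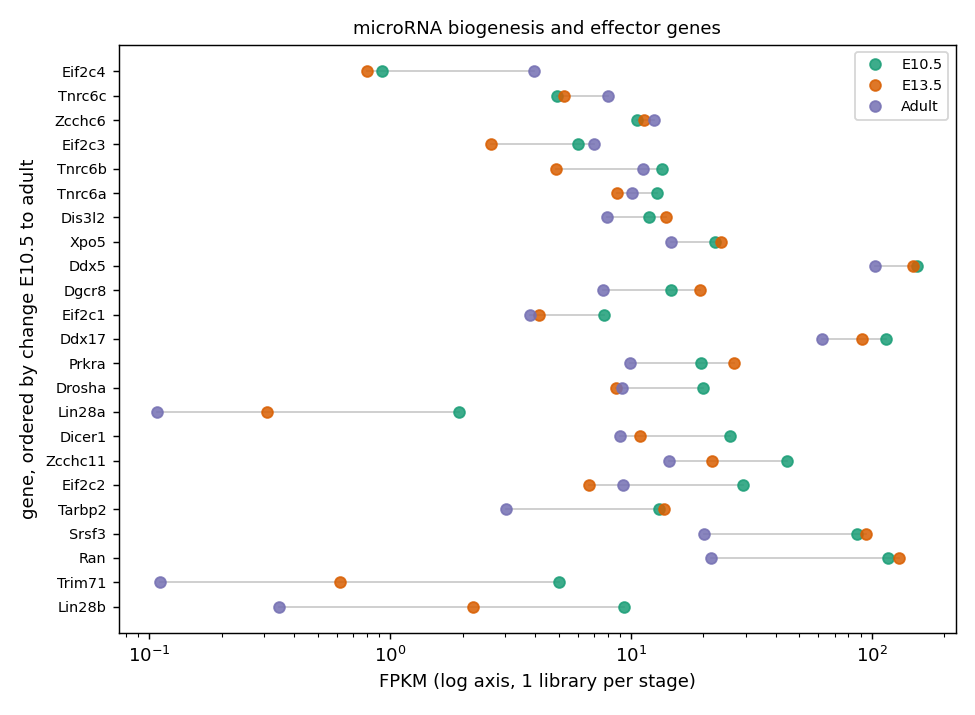
FPKM on a log axis of the 23 microRNA biogenesis and effector genes in the 3 libraries, 1 point per stage, ordered by the change from E10.5 to the adult. Lin28b (9.31 to 0.346 FPKM) and Trim71 (5.0 to 0.111 FPKM) stand at the lower end, and Eif2c4 (0.922 to 3.94 FPKM) at the upper end.

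Most of a fixed list of 28 protein-coding genes that carry microRNAs in their introns or overlap one were also lower in the adult. The list was chosen and does not cover all coding loci with a microRNA. Among the 74 coding loci with a microRNA name that were left out above, changes from E10.5 to the adult went both ways. Cd36, for instance, changed by 4.93 and Igf2bp1 by -5.60. Of the 26 listed loci that reached 1 FPKM, 11 (42.3%) were lower past 1 from E10.5 and 1 was higher, beside the same 27.3% and 14.8% over mRNA loci. The median change of the listed loci was -0.53, or -0.14 with median-of-ratios scaling, against -0.40 and -0.06 for mRNA loci. The 11 include the locus that joins Myh6 with Myh7, listed at 0 in the adult, and without it 10 of 25 (40%) were lower. With median-of-ratios scaling 8 of the 26 were lower and 3 higher. The lower ones included Mcm7, a replication licensing gene that holds the miR-106b cluster (34.3, 37.9 and 2.06 FPKM), and Smc4, a condensin gene that holds miR-15b and miR-16-2. Both were thus low only in the adult, as the host of miR-322 was. Slit2, an axon guidance ligand gene with miR-218-1, was at 29.0, 15.5 and 1.19 FPKM, and Slit3 with miR-218-2 at 8.41, 4.16 and 2.83 FPKM. The others past -1 were Evl, Srebf2, Rcl1, Ctdspl, Wdr82 and Mib1. Of these, Slit3 (-1.30 to -0.97), Wdr82 (-1.16 to -0.77) and Mib1 (-1.14 to -0.75) came under the threshold with median-of-ratios scaling. The only listed gene past 1 upward as deposited was Dnm3, a dynamin gene, at 0.217, 0.312 and 2.83 FPKM. Myh7b, Egfl7 and Vmp1, the genes around miR-499, miR-126 and miR-21, stayed within 1 of their E10.5 level as deposited, and Vmp1 (22.7, 28.1 and 35.7 FPKM) was past it with median-of-ratios scaling (0.63 and 1.03), as was Ppargc1b (0.96 and 1.34).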

How the data were processed

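Per the labels, total RNA of heart ventricle was made into libraries with the TruSeq Stranded Total RNA kit from 1 µg of RNA, 1 library at each of 3 stages. The authors mapped the reads to mm10 (GRCm38) with TopHat2 and Bowtie, assembled them with Cufflinks with and without UCSC annotation, and deposited FPKM per merged locus. Versions, options and the treatment of multiply mapped fragments are not given in the sources used here. The merged annotation gave the names, exons and relation of each locus to RefSeq transcripts.

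Members were selected by name, split at 200 nt of summed exon and, after the annotation was seen, by strand relative to the microRNA entry. The members and lists were chosen with earlier results of these data known. Changes are differences of log2(FPKM + 1) among loci that reached 1 FPKM in any library, counted past 1. Alternatives changed the scaling (median-of-ratios factors 1.07, 1.19 and 0.804 in order of development, or sums over mRNA loci without globin and mitochondrial genes, 0.934, 1.16 and 0.923), pseudocount, lower limit, threshold, length limit and matching. Named by rule were the 30 loci over 200 nt with the highest level, Mir17hg and Mir22hg, the highest short loci and those of muscle and endothelial families, the list genes past 1, and the core genes Drosha, Dgcr8, Dicer1, Xpo5 and Ago2. Of the named antisense loci only the highest, Mir378, is described singly. Other loci were named after their values were seen, as relatives of these or as past 1. An exact 0 can be a failed estimate and is described as listed at 0, with no fold. Of the red cell marker list, 1 gene is not reported here. MicroRNA entries were compared by accession with their RefSeq position on the same assembly (GRCm38.p6). Read counts were not used here, so the depth is an estimate from value steps (0.0725, 0.0375 and 0.0725 FPKM times kb). The counting was tested on simulated data. Calculations used Python 3.11.15 and numpy 2.4.6.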

Additional observations from a re-analysis of the deposited data

How the results depend on the processing

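With 1 library per stage the spread between animals is unknown, and low loci rest on few fragments. No paired analysis was possible because no stage was sequenced more than 1 time, and leaving out a replicate was not possible for the same reason. Of 88 alternatives, 68 kept the count within 1.5 times. Requiring a transcript identical to the microRNA entry, which drops the antisense pieces and hosts merged by overlap, left 49 of the 182 loci over 200 nt, and the counts past 1 became 3 lower from E10.5 to E13.5 (36 before), 13 higher from E13.5 to the adult (96 before), and, over the whole interval, 15 higher and 10 lower (60 and 26 before). A length limit of 300 nt moved the short loci at 1 FPKM from 3 to 17. With a pseudocount of 0.1, 32 loci were higher and 74 lower from E10.5 to E13.5 (12 and 36 before), and 2 coding hosts were higher in the adult (1 before). With a threshold of 2, the counts were 2 higher and 9 lower from E10.5 to E13.5, 12 and 8 from E13.5 to the adult (18 lower before), 12 and 8 over the whole interval, 0 and 4 for the biogenesis genes (1 and 10 before), and 0 and 5 for the coding hosts (1 and 11 before). Median-of-ratios scaling gave 3 higher coding hosts. One alternative added after the data were seen took the sense loci alone, and both rescalings gave 5 in place of 9 loci higher from E10.5 to E13.5. Another left out the 2 loci named Mir4660 and gave 15 in place of 17 higher sense loci over the whole interval. A further one left out loci listed at 0 at E10.5 or in the adult, and 16 of 52 sense loci were then higher and 11 lower, and 10 of 25 coding hosts lower. From E13.5 to the adult the 16 higher and 16 lower sense loci became 22 and 11 with median-of-ratios scaling. The loci that dropped under 1 between the embryonic stages were those of Mir133a-1, Mir223, Mir322 and Mir148a.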
